A study of Mus musculus with 18 samples.

Results

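The 10 genes described here encode enzymes that make nucleotides anew or recover them by salvage: Aprt, Hprt, Impdh2, Ppat, Gart, Paics, Atic, Cad, Umps and Ctps. They were taken by symbol from a table of 21003 gene symbols, all 10 matched a row, and all 10 passed the filter on low counts in both fits used below. RNA was measured by SMART-Seq v4 in 18 libraries of 100 LT-HSCs, the long-term haematopoietic stem cells that renew themselves and replenish all blood lineages. Cells came from the bone marrow of mice aged 8 to 12 weeks, named B6.SJL in one label and c57 B6 WT in another, and no genotype, allele or transgene set the groups apart. The first group was fresh, uncultured cells labelled pH 7.4 (6 libraries). The second was cells kept for 48 h in medium of pH 7.4 (6 libraries), and the third was cells kept for 48 h in medium of pH 6.9 (6 libraries). Both media were IMDM with 10% fetal bovine serum and mSCF, GCSF and mTPO (stem cell factor, a granulocyte growth factor and thrombopoietin) at 50 ng/ml, at 5% CO2 and 3% oxygen. The design text names 6 individual mice, and the number in each title was taken as the mouse; whether each mouse gave cells to all 3 groups is not stated.

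Purine rings are built step by step on a phosphorylated ribose, ending in inosine monophosphate, from which AMP and GMP are made. Pyrimidine rings are built first and joined to the ribose afterwards, giving UMP and then the other pyrimidine nucleotides. Salvage enzymes join free bases to the same phosphorylated ribose at a lower energy cost, and dividing cells draw on both routes for RNA and DNA.

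The first sequencing index splits each group into odd-numbered and even-numbered mice, which makes 6 sets of libraries, each with its own first index. Levels are given as counts per 1e+06 (CPM) on totals scaled by TMM, a method that sets the scale from genes that differ little. Library totals ran from 6311 to 7508120 counts. Fresh replicate 1 held only 6311 counts, and fresh replicate 4 and pH 6.9 replicate 3 had 9408 and 8925 genes detected, whereas the other 15 libraries had 11225 to 12792. The 15 libraries were used for comparisons between sets and all 18 for comparisons between groups. Within odd or within even mice the first index differed wherever the medium differed, so that index and medium cannot be told apart there. In each of the 15 libraries 8 or 9 of the 9 LT-HSC marker genes were detected, and the summed level of B cell markers was at most 6.60 CPM and that of T cell markers at most 1.59 CPM. Each library is a pool, in which fewer cells of a type and less RNA per cell cannot be told apart.

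Over whole groups, none of the 10 enzymes passed the test between media or between fresh and cultured cells. In the comparison of pH 6.9 with pH 7.4, 0 of 10 passed an adjusted p of 0.05 (edgeR quasi-likelihood test, Benjamini-Hochberg), where 0% of the 10104 genes tested passed and 254 had an unadjusted p under 0.05. The same held for pH 7.4 against fresh cells (0 of 10 members, 0% of all genes, 381 genes at an unadjusted p under 0.05) and for pH 6.9 against fresh cells (0 of 10 members, 0% of all genes, 229 genes). DESeq2 called 4, 0 and 0 of all genes in these 3 comparisons, and none of them was a member. The libraries of every group overlapped with those of every other group for each of the 10 genes. The smallest unadjusted p of the 10 genes in the pH comparison was 0.117, for Atic.

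The levels of Aprt, the adenine salvage enzyme, overlapped between the 3 groups. Over 6 libraries its level ran from 80.2 through a median of 210.8 to 363 CPM in fresh cells, from 111 through 154 to 203 CPM at pH 7.4, and from 110 through 188 to 354 CPM at pH 6.9. The lowest fresh value is 1 count in fresh replicate 1, without which the fresh range began at 146 CPM, and the highest came from fresh replicate 4. The log2 fold change of pH 6.9 over pH 7.4 was 0.40 ± 0.35 (SE, n = 6 and 6, adjusted p = 0.997, edgeR).

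Atic was the 1 member with an unadjusted p under 0.05 in a whole-group comparison. It ran from 22.0 through 42.3 to 361 CPM in fresh cells, from 10.0 through 28.2 to 56.8 CPM at pH 7.4 and from 21.0 through 29.0 to 253 CPM at pH 6.9. Its highest fresh and pH 6.9 values came from the libraries with few genes detected, fresh replicate 4 and pH 6.9 replicate 3. The log2 fold change of pH 7.4 over fresh was -1.71 ± 0.75 (SE, n = 6 and 6, adjusted p = 0.879, edgeR).

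Once odd and even mice were taken apart, 3 of the 10 enzymes passed as higher at pH 6.9 than at pH 7.4 in odd-numbered mice and 4 as lower in even-numbered mice. In odd mice (2 libraries at pH 6.9, 3 at pH 7.4) Aprt, Impdh2 and Cad rose and none fell, 3 of 10 members, in a comparison that called 11.1% of 10659 genes and 5.07% as higher. In even mice (3 libraries each) Aprt, Gart, Impdh2 and Umps fell and none rose, 4 of 10, where 6.75% of all genes passed and 4.07% passed as lower. The log2 fold changes were above 0 for 10 of 10 members in odd mice, with a median of 0.43 against -0.08 for all genes tested, although the uncalled values of Ppat, Gart, Atic and Ctps turned below 0 in some alternatives. They were below 0 for 10 of 10 in even mice, with a median of -0.62 against 0.04. The difference between the 2 changes passed the test for 6 of 10 members (Aprt, Hprt, Gart, Impdh2, Cad and Umps), where 18.1% of all genes passed. The odd and even changes share no library. With all 18 libraries the counts were 1 in odd mice, 0 in even mice and 1 for the difference, where 65, 0 and 173 of 10104 genes passed. Leaving out pH 6.9 replicate 1 leaves 1 library at pH 6.9 in odd mice, and the log2 fold changes of Impdh2 and Cad were then 0.63 and 2.02. In even mice the count was 0 without pH 7.4 replicate 6 or pH 6.9 replicate 6, where 161 of 10551 and 207 of 10513 genes passed. It was 2 without pH 7.4 replicate 2 or pH 6.9 replicate 2 or 4, where 340 of 10543, 491 of 10595 and 373 of 10584 passed. The main fit called 719 of 10659 genes there, so calls were lost over all genes.

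**Figure D1:**
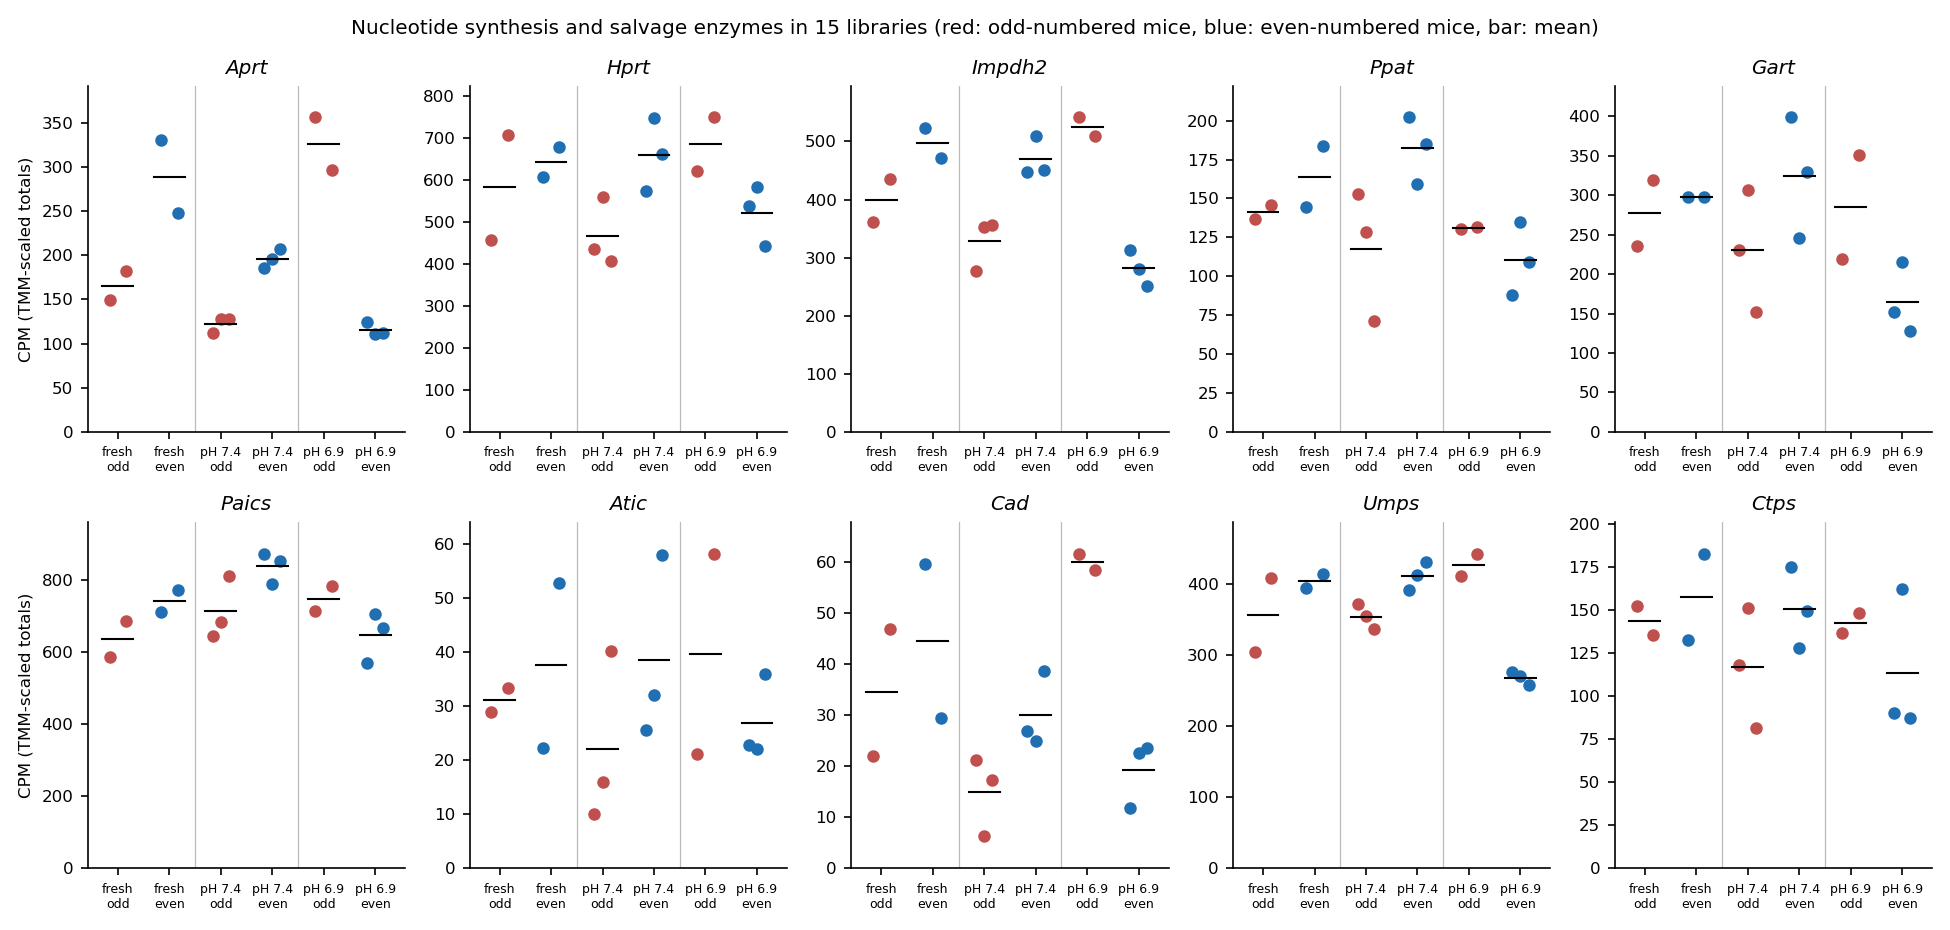
Level of each enzyme gene in CPM (vertical axes start at 0) in the 15 libraries, by medium and by odd (red) or even (blue) mouse number; each point is a library and each bar the mean of a set. For Aprt, Hprt, Impdh2, Cad and Umps the odd points all lie above the even points at pH 6.9 and below them at pH 7.4. The share of all genes that separate in this way was not counted.

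Of the salvage enzymes, Aprt changed in both sets of mice and Hprt passed only in the difference between them. Aprt (chr8:122574635-122576909, minus strand, GRCm38) joins free adenine to the ribose and gives AMP. The odd libraries held it at 112, 128 and 127 CPM at pH 7.4 and at 356 and 297 CPM at pH 6.9. The even libraries held it at 186, 196 and 207 CPM at pH 7.4 and at 125, 111 and 112 CPM at pH 6.9. Neither pair of sets overlapped, and the order of the media turned around between odd and even mice. Sets of 2 or 3 libraries can separate by chance. Here and below, the share of all genes whose sets did not overlap was not counted. The log2 fold change of pH 6.9 over pH 7.4 was 1.41 ± 0.19 in odd mice (SE, n = 2 and 3, adjusted p = 0.000491, edgeR). In even mice Aprt fell by 0.76 ± 0.17 on the log2 scale (n = 3 and 3, adjusted p = 0.0136, edgeR). The difference between the changes was 2.17 ± 0.26 (adjusted p = 3.17e-05, edgeR), and this call was lost in 0 of 17 alternative fits, with adjusted p from 7.96e-13 to 0.0148. The rise in odd mice was lost in 0 of 11 alternatives, with adjusted p from 1.99e-09 to 0.0452. The fall in even mice missed the threshold in 4 of 12: without pH 7.4 replicate 6 (adjusted p = 0.0923), without pH 6.9 replicate 4 (0.0551) or 6 (0.0763), and with all 18 libraries (0.811).

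In fresh cells Aprt also lay lower in odd than in even mice, a direction that all 10 members shared. The median log2 difference was -0.22 for the members and 0.03 for all genes tested. The libraries of 3 of 10 members (Aprt, Impdh2 and Paics) did not overlap there, which 2 libraries against 2 can readily give by chance. The share of all genes without overlap was not counted. The 2 fresh libraries of odd mice held Aprt at 149 and 182 CPM and those of even mice at 331 and 248 CPM. Fresh odd cells lay below fresh even cells without overlap, but the difference in log2 level of -0.81 ± 0.21 did not pass (n = 2 and 2, adjusted p = 0.242, edgeR), in a comparison that called 0 of 10 members and 0.0563% of all genes. DESeq2 called 1 member there, Aprt, and 57 of all 10659 genes. In that comparison 6 genes of 10659 passed and 816 had an unadjusted p under 0.05 (edgeR).

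Hprt (chrX:52988137-53021659, plus strand), which salvages hypoxanthine and guanine, moved less. It stood at 435, 561 and 406 CPM at pH 7.4 and at 621 and 749 CPM at pH 6.9 in odd mice. Levels in even mice were at 573, 748 and 662 CPM at pH 7.4 and at 537, 582 and 444 CPM at pH 6.9. The odd sets did not overlap and the even sets did. Neither change passed (log2 fold change 0.55 ± 0.21, n = 2 and 3, adjusted p = 0.0988 in odd mice; -0.34 ± 0.19, n = 3 and 3, adjusted p = 0.323 in even mice, edgeR). The difference between them, 0.90 ± 0.28, passed with an adjusted p of 0.0352 (edgeR) and missed the threshold in 9 of 17 alternatives (adjusted p 0.0172 to 0.243). The libraries whose loss ended it were pH 7.4 replicates 1, 4, 5 and 6 and pH 6.9 replicates 2, 5 and 6. It was also lost with a term for the mouse number (0.0646) and with all 18 libraries (0.243).

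Among the purine enzymes, Impdh2 changed in both sets of mice and in opposite directions. Impdh2 (chr9:108560286-108565584, plus strand) turns inosine monophosphate towards GMP and limits the rate of guanine nucleotide synthesis. Levels in odd mice were at 277, 353 and 356 CPM at pH 7.4 and at 541 and 509 CPM at pH 6.9. Its even libraries stood at 448, 510 and 450 CPM at pH 7.4 and at 313, 280 and 251 CPM at pH 6.9. The media did not overlap in either set of mice. It rose by 0.68 ± 0.18 on the log2 scale in odd mice (SE, n = 2 and 3, adjusted p = 0.0219, edgeR). It fell by 0.74 ± 0.16 in even mice (n = 3 and 3, adjusted p = 0.011, edgeR). The difference was 1.42 ± 0.24 (adjusted p = 0.000599, edgeR), and in 17 alternatives it was lost only with all 18 libraries (0.168).

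The separate changes of Impdh2 were less stable than their difference. The rise missed the threshold with a term for the mouse number (adjusted p = 0.0523), without pH 7.4 replicate 1 (0.0809), without pH 6.9 replicate 1 (0.12) or 5 (0.0702) and with all 18 libraries (0.434). The fall missed it without pH 7.4 replicate 6 (0.0539), without pH 6.9 replicate 6 (0.0781) and with all 18 libraries (0.878). GENCODE annotates pseudogene copies of Aprt and of Impdh2 that are no separate rows here, so reads from those copies could have been counted under either gene. Of the exon bases of Impdh2 1.56% are shared with Ndufaf3 on the other strand, and the library kit keeps no strand.

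Aprt and Impdh2 followed each other most closely of all 45 pairs of members. Their Pearson r over the 15 libraries was 0.92 in log2 CPM, against a median of 0.49 and a lowest value of 0.06 (Ppat with Atic), and 45 of 45 pairs had a positive r. All pairs share the same libraries, their depth and their scaling, and r is given as a description. The sequences at their starts are shown because the members that move together can be compared there. They are the 250 bases before and 50 bases after each RefSeq start on GRCm38.p6, with an E-box (CACGTG, which reads the same on both strands) in capitals:
Aprt (chr8:122576858-122577157, minus strand): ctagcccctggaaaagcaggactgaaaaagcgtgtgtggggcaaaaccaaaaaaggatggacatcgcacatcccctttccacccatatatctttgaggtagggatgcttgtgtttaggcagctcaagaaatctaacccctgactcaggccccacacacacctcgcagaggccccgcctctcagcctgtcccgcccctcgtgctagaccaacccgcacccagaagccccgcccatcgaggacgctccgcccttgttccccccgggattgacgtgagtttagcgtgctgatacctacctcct
Impdh2 (chr9:108560186-108560485, plus strand): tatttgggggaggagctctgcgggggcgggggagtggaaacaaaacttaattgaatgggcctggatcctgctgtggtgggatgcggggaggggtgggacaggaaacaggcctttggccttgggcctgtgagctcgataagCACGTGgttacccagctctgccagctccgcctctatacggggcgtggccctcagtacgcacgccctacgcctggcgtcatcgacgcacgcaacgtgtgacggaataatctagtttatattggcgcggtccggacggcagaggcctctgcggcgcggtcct
The window of Impdh2 holds an E-box that begins 110 bases before the start and that of Aprt holds none. Of 11 such windows of the 10 genes (Ctps has 2), 3 held an E-box (Impdh2, Paics and Atic), against 7.15% of all 32851 RefSeq windows of the same length. A second motif, CCGGAAG on either strand, was found in 2 of the 11 windows (Ppat and Gart), against 8.86% of all windows. The CCAAT box, CCAAT on either strand, was found in 4 (Gart, Paics, Atic and Impdh2), against 12289 of all 32851 windows. No matches of the 3 motifs overlapped. Of the genes called in odd or even mice, Impdh2 held an E-box, and Aprt, Gart, Cad and Umps held none in these windows. A match is a description and not a binding site.

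Of the enzymes of the chain to inosine monophosphate, Gart fell in even mice, and Ppat, Paics and Atic passed in neither set of mice. Gart (chr16:91621186-91646952, minus strand) carries out several early and middle steps in a single protein. In even mice it stood at 399, 246 and 329 CPM at pH 7.4 and at 152, 215 and 128 CPM at pH 6.9. Its odd libraries stood at 231, 307 and 152 CPM at pH 7.4 and at 219 and 351 CPM at pH 6.9. The even sets did not overlap and the odd sets did. Gart fell by 0.97 ± 0.27 on the log2 scale in even mice (SE, n = 3 and 3, adjusted p = 0.035, edgeR). The change in odd mice was 0.31 ± 0.29 (n = 2 and 3, adjusted p = 0.544, edgeR), and its sign turned without pH 6.9 replicate 5 (-0.070) and with all 18 libraries (-0.034). The difference was 1.29 ± 0.39 (adjusted p = 0.0301, edgeR).

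Both calls for Gart lay near the threshold. The fall was lost with a term for the mouse number (adjusted p = 0.0597), without pH 7.4 replicate 2 (0.145) or 6 (0.136), without pH 6.9 replicate 2 (0.106) or 6 (0.17), and with all 18 libraries (0.957). On leaving out these 4 libraries in turn the log2 fold change was -0.80, -0.93, -0.92 and -0.81. The difference was lost in 9 of 17 alternatives (adjusted p 0.00095 to 0.508), among them the mouse-number term (0.0549), all 18 libraries, and the fits without pH 7.4 replicate 1, 2, 5 or 6 and without pH 6.9 replicate 2, 5 or 6. Of its exon bases 19.7% lie under Gm15964, an antisense transcript, and the library kit keeps no strand, so that reads there cannot be assigned to either gene.

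Ppat and Paics start head to head on chromosome 5 and were not called in either set of mice. Ppat (chr5:76913249-76951578, minus strand) catalyses the committed first step of purine synthesis, and Paics (chr5:76951307-76967509, plus strand) 2 consecutive later ones. Their annotated exons share 272 bases, 6.15% of those of Ppat and 8.67% of those of Paics, where reads cannot be told apart without strand. The starts are shown because the pair shares this short stretch of genome:
Ppat (chr5:76951529-76951828, minus strand): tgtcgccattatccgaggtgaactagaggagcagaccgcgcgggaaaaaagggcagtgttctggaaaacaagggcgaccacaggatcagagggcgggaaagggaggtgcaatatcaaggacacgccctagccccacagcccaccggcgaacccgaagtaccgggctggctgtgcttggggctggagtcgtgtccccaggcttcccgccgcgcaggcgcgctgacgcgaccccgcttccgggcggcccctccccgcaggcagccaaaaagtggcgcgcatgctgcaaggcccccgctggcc
Paics (chr5:76951052-76951351, plus strand): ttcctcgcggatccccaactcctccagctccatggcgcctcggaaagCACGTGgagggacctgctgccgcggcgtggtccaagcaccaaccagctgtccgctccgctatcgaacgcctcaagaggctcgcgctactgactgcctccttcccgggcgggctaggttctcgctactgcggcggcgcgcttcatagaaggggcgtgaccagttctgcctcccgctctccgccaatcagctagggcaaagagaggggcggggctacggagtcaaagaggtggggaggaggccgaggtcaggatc
The E-box in capitals begins 203 bases before the start of Paics, and the window of Ppat holds none.

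Ppat in odd mice stood at 153, 128 and 71.5 CPM at pH 7.4 and at 131 and 132 CPM at pH 6.9. The even libraries held it at 202, 159 and 185 CPM at pH 7.4 and at 88.1, 135 and 109 CPM at pH 6.9. The even sets did not overlap, yet the log2 difference of -0.71 ± 0.24 missed the threshold (n = 3 and 3, adjusted p = 0.0784, edgeR). Its change in odd mice was 0.16 ± 0.27 (n = 2 and 3, adjusted p = 0.759, edgeR) and was -0.10 without pH 7.4 replicate 5. Paics stood at 644, 684 and 810 CPM at pH 7.4 and 712 and 784 CPM at pH 6.9 in odd mice. Levels in even mice were at 872, 787 and 852 CPM at pH 7.4 and 568, 706 and 666 CPM at pH 6.9. Paics was the member with the smallest change in odd mice (0.07 ± 0.17, 95% interval -0.29 to 0.43, adjusted p = 0.837, edgeR). Its even sets did not overlap (-0.37 ± 0.15, n = 3 and 3, adjusted p = 0.16, edgeR). Despite their shared start region, the r between Ppat and Paics over 15 libraries was 0.39, whereas Ppat and Ctps reached 0.83.

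Atic (chr1:71557150-71579631, plus strand), which closes the purine ring in the final steps to inosine monophosphate, had 21 to 418 counts in the 15 libraries and no called change. In odd mice it stood at 10.1, 15.9 and 40.2 CPM at pH 7.4 and at 21.1 and 58.2 CPM at pH 6.9. Its even libraries stood at 25.5, 32.0 and 58.1 CPM at pH 7.4 and at 22.9, 22.1 and 35.9 CPM at pH 6.9. The media overlapped in both. Its intervals were the widest of the 10 members in both sets of mice (log2 fold change 0.89, 95% interval -0.25 to 2.03, in odd mice; -0.51, interval -1.54 to 0.52, in even mice). Without pH 6.9 replicate 5 its change in odd mice was -0.054.

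Of the pyrimidine enzymes, Cad rose in odd mice and Umps fell in even mice. Cad (chr5:31054780-31078479, plus strand) is a single large protein that carries out the opening steps of pyrimidine synthesis. The odd libraries held it at 21.3, 6.25 and 17.3 CPM at pH 7.4 and at 61.5 and 58.3 CPM at pH 6.9. In even mice it stood at 26.8, 24.8 and 38.6 CPM at pH 7.4 and at 11.7, 22.7 and 23.6 CPM at pH 6.9. The media did not overlap in either set of mice. Its log2 fold change in odd mice was 2.06 ± 0.48 (SE, n = 2 and 3, adjusted p = 0.0117, edgeR), the highest of the 10 members, from 20 to 419 counts a library. In even mice it was -0.61 ± 0.43 (n = 3 and 3, adjusted p = 0.453, edgeR). The difference was 2.67 ± 0.64 (adjusted p = 0.00737, edgeR). The rise missed the threshold with all 18 libraries (adjusted p = 0.479) or without pH 6.9 replicate 1 (0.0517), and the difference with all 18 libraries (0.507).

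Umps (chr16:33954782-33967038, minus strand) makes UMP in the final steps of the route. The even libraries held it at 391, 413 and 430 CPM at pH 7.4 and at 276, 271 and 258 CPM at pH 6.9. Levels in odd mice were at 371, 354 and 336 CPM at pH 7.4 and at 411 and 442 CPM at pH 6.9. Within each set the libraries lay close together, and the media did not overlap in either set of mice. Umps fell by 0.62 ± 0.15 on the log2 scale in even mice (SE, n = 3 and 3, adjusted p = 0.0221, edgeR). The change in odd mice was 0.27 ± 0.17 (n = 2 and 3, adjusted p = 0.331, edgeR), and the difference was 0.89 ± 0.23 (adjusted p = 0.0113, edgeR). The fall missed the threshold without pH 7.4 replicate 2, 4 or 6, without pH 6.9 replicate 2, 4 or 6 (adjusted p 0.0533 to 0.136) and with all 18 libraries (1). The difference was lost only with all 18 libraries (0.199). Of the exon bases of Umps 6.11% lie under Gm15829, an antisense transcript, where reads cannot be assigned to either gene without strand.

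Ctps (chr4:120539868-120570276, minus strand) makes CTP from UTP and showed no called change. It stood at 118, 151 and 81.6 CPM at pH 7.4 and at 137 and 148 CPM at pH 6.9 in odd mice. Levels in even mice were at 175, 128 and 149 CPM at pH 7.4 and at 90.4, 162 and 87.6 CPM at pH 6.9. The media overlapped in both. The log2 fold change was 0.28 ± 0.28 in odd mice (n = 2 and 3, adjusted p = 0.573, edgeR), with -0.27 when all 18 libraries were fitted. In even mice it was -0.41 ± 0.25 (n = 3 and 3, adjusted p = 0.389, edgeR).

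**Figure D2:**
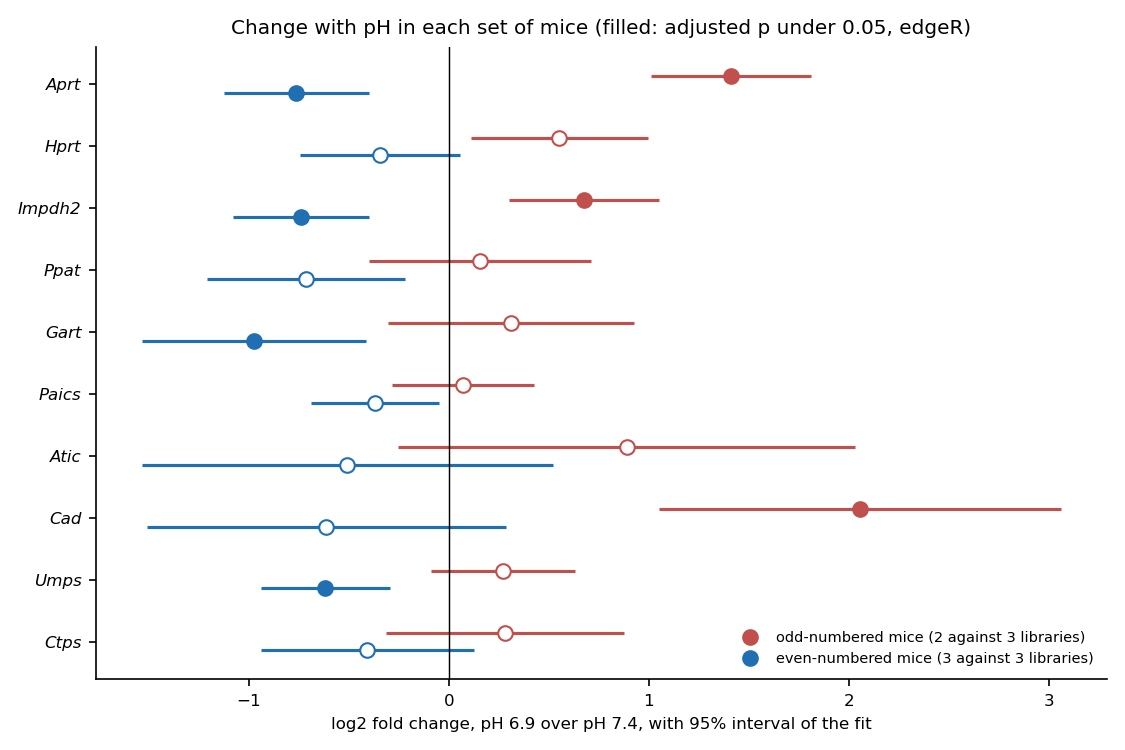
Log2 fold change of pH 6.9 over pH 7.4 for each enzyme gene in odd-numbered (red, 2 against 3 libraries) and even-numbered mice (blue, 3 against 3), with 95% intervals of the edgeR fit; filled points passed an adjusted p of 0.05. All 10 red points lie above 0 and all 10 blue points below it, and 3 red and 4 blue points are filled.

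Odd and even mice were also set against each other within a medium, using the same libraries as above in another contrast. At pH 7.4 all 10 members were lower in odd than in even mice, with a median log2 difference of -0.51. Of these, 1 of 10 passed as lower (Aprt, -0.68 ± 0.17, n = 3 and 3, adjusted p = 0.037, edgeR), where 3.33% of all genes passed and 1.66% as lower. That call was lost on leaving out any of the 6 libraries, and with all 18 libraries. DESeq2 called 2 members (Aprt and Impdh2) and 783 of all 10659 genes, where edgeR called 355. At pH 6.9 all 10 were higher in odd mice, with a median of 0.63, and 4 of 10 passed as higher (Aprt 1.49 ± 0.19, Impdh2 0.90 ± 0.18, Cad 1.60 ± 0.47 and Umps 0.67 ± 0.17, n = 2 and 3). There 14.4% of all genes passed and 7.36% as higher. Cad was not called without pH 6.9 replicate 2, 4 or 6, where 1368 of 10595, 1057 of 10584 and 873 of 10513 genes passed. Umps was lost as well without replicate 6, which left 2 members (Aprt and Impdh2), and Gart was gained without replicate 4. Leaving out either odd library at pH 6.9 leaves 1 library in that set, so the calls of those fits are not listed here. The count at pH 6.9 was 1 (Aprt) with all 18 libraries, where 152 of 10104 genes passed.

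Against fresh cells of odd or of even mice, members were called at pH 6.9 and not at pH 7.4. At pH 7.4, 0 of 10 members passed in odd mice (0.113% of all genes passed), with Aprt and Cad at an unadjusted p under 0.05. In even mice 0 of 10 passed (0.103% of all genes), with Aprt under 0.05 (edgeR). DESeq2 called 0 members in both, and 173 of 10659 genes in odd and 135 in even mice. At pH 6.9 in odd mice 1 of 10 rose, Aprt by 0.98 ± 0.21 on the log2 scale (n = 2 and 2, adjusted p = 0.0425, edgeR), where 0.6% of all genes passed. This call was lost with a term for the mouse number, with all 18 libraries, without fresh replicate 3 or 5, and without pH 6.9 replicate 1. At pH 6.9 in even mice 3 of 10 fell, where 10.9% of all genes passed, 656 of 10659 as lower. Aprt fell by 1.32 ± 0.19, Impdh2 by 0.82 ± 0.18 and Umps by 0.59 ± 0.17 (n = 3 and 2, adjusted p = 0.000507, 0.00686 and 0.0316, edgeR). Umps was not called without pH 6.9 replicate 2, 4 or 6, with the mouse-number term or without the filter on low counts. In those fits 986 of 10595, 754 of 10584, 560 of 10513, 941 of 10659 and 1487 of 15692 genes passed, and Aprt and Impdh2 stayed called. The count was 1 (Aprt) with all 18 libraries, where 82 of 10104 genes passed. These comparisons share their fresh and pH 6.9 libraries with those above. Progenitor marker sums of the fresh libraries, given with the markers of other cell types, ran from 69.3 to 4965 CPM in odd mice and from 97.6 to 254 CPM in even mice.

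The sets of libraries accounted for unequal shares of the spread of the members. Of the variance of log2 CPM over the 15 libraries, 95.5% lay between the 6 sets for Aprt, 89.1% for Impdh2 and 87.0% for Umps. It was 67.6% for Cad, 64.0% for Paics, 57.3% for Gart, 55.4% each for Hprt and Ppat, 36.5% for Ctps and 27.2% for Atic. With 6 sets and 15 libraries, 35.7% would lie between sets on average if the sets did not differ, so that the shares of Ctps and Atic are close to or below that value. Averaged over the 10 members in SDs of each gene, the highest libraries were pH 6.9 replicate 5 (0.96) and pH 7.4 replicate 6 (0.86). The lowest were pH 6.9 replicates 2 (-1.17) and 6 (-1.07).

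**Figure D3:**
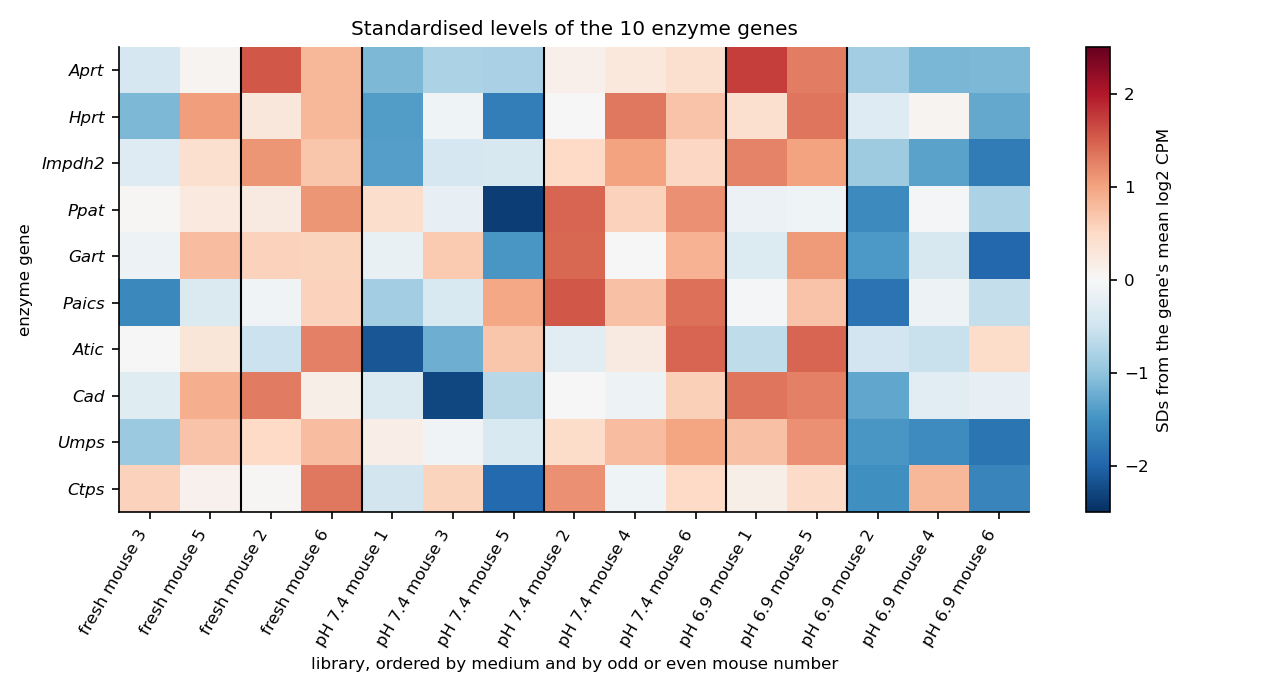
Levels of the 10 enzyme genes (rows) in the 15 libraries (columns, black lines between the 6 sets of medium and odd or even mice), coloured by the number of SDs from the gene's mean log2 CPM. The columns of pH 6.9 in even mice are mostly blue and those of pH 6.9 in odd mice and pH 7.4 in even mice mostly red.

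Markers of other cell types moved with the sets, and their part in the changes was not tested. The summed level of the 4 granulocyte-monocyte progenitor markers (Mpo, Elane, Ctsg and Prtn3) was 1583 to 4695 CPM at pH 7.4 and 28.5 to 43.4 CPM at pH 6.9 in even mice. In odd mice it was 39.6 to 68.3 CPM at pH 7.4, where Elane was at 0, and 162 to 163 CPM at pH 6.9. The 9 LT-HSC markers summed to 368 to 612 CPM at pH 7.4 and 1107 to 1561 CPM at pH 6.9 in even mice, and to 849 to 1477 and 1041 to 1394 CPM in odd mice. In each set of mice, the medium with the higher progenitor marker sum was also the one with the higher mean level of every member. Within fresh odd and within fresh even mice, the library with the higher sum also had the higher average over the members. Across odd and even mice, the fresh library with the highest sum (replicate 5) did not have the highest average. Those of even mice had progenitor marker sums of 97.6 and 254 CPM and averaged 0.49 and 0.81 SDs over the 10 members. Those of odd mice had sums of 69.3 CPM (replicate 3) and 4965 CPM (replicate 5) and averaged -0.42 and 0.42 SDs. Erythroid markers (4) summed to 10.6 to 114 CPM at pH 7.4 and 144 to 193 CPM at pH 6.9 in odd mice, where Klf1 was at 0 at pH 6.9. In even mice they summed to 68.9 to 99.7 and 8.08 to 221 CPM. Monocyte and macrophage markers (4) overlapped between media in both sets of mice, as did the 3 megakaryocyte markers in even mice; in odd mice megakaryocyte markers stood at 78.1 to 800.3 CPM at pH 7.4 and 57.2 to 77.1 CPM at pH 6.9.

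Other genes of nucleotide metabolism that passed were mostly higher at pH 6.9 in odd mice and lower in even mice. Of 48 listed, 47 matched and 46 were tested. In odd mice 9 rose and none fell, in even mice 9 fell and 2 rose, and the difference passed for 18 (15 above 0, 3 below). Of all genes 11.1% passed in odd mice (5.07% as higher), 6.75% in even mice (4.07% as lower) and 18.1% in the difference. The median log2 fold change of the 46 genes was 0.34 in odd and -0.43 in even mice, against -0.08 and 0.04 for all genes. In odd mice the genes that rose included kinases of nucleotides (3 of 5: Guk1, Nme1 and Nme2). The others were suppliers of deoxynucleotides (4 of 8, among them Tyms, Dut and Dctd) and salvage genes (2 of 10: the kinases Tk1 and Uck2). None of the 6 other purine synthesis genes passed there, which does not set so few genes apart from all genes. In even mice the fall took in Prps1, which makes the activated ribose (1 of 2), the purine synthesis genes Adsl and Gmps (2 of 6), Guk1 and Nme1 (2 of 5), Dut and Dctd (2 of 8), Uck2 (1 of 10) and Shmt1, which supplies one-carbon units (1 of 5). Of 8 tested genes of nucleotide breakdown, 0 passed in odd mice, in even mice or in the difference. At the shares above, 0 of 8 does not set them apart from all genes. With all 18 libraries 0, 0 and 2 of the 46 genes passed, where 65, 0 and 173 of 10104 genes did. Without the filter on low counts 17 passed in even mice, where 1042 of 15692 genes did. Leaving out a library gave 4 to 8 calls in odd mice, 5 to 10 in even mice and 13 to 19 for the difference.

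Dctd, which turns dCMP into dUMP on the way to thymidylate, had the largest fold of the called genes in odd mice. Of the uncalled ones, Xdh had a higher log2 fold change of 2.81 ± 1.11 (adjusted p = 0.11, edgeR). Xdh lay low, at 0.97 to 1.21 CPM at pH 7.4 and 3.76 to 11.8 CPM at pH 6.9 in odd mice. The level of Dctd was 44.4 to 67.2 CPM at pH 7.4 and 155 to 175 CPM at pH 6.9 in odd mice, and 97.9 to 99.4 and 33.1 to 55.8 CPM in even mice. The log2 fold change of Dctd was 1.54 ± 0.24 in odd mice (n = 2 and 3, adjusted p = 0.00099, edgeR), and it fell by 1.13 ± 0.22 in even mice (n = 3 and 3, adjusted p = 0.00539, edgeR). Nme1, a kinase that makes nucleoside triphosphates, showed 424 to 566 and 1025 to 1259 CPM in odd mice, and 706 to 820 and 324 to 419 CPM in even mice, at pH 7.4 and 6.9. Its log2 fold changes were 1.21 ± 0.20 (adjusted p = 0.00146) and -1.03 ± 0.18 (adjusted p = 0.00311, edgeR). Nme2, a close relative of Nme1 with which it can share reads, rose by 1.14 ± 0.24 in odd mice (adjusted p = 0.00735, edgeR). Uck2, which phosphorylates uridine and cytidine, rose by 1.03 ± 0.22 in odd and fell by 1.12 ± 0.20 in even mice (adjusted p = 0.00791 and 0.00333, edgeR), and its rise was lost without pH 6.9 replicate 5 (0.0794).

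In even mice Shmt1 had the largest fall of the called genes, and Adssl1 and Tk2 were the 2 that rose. Uncalled genes lay beyond some of these values, such as Rrm2b (1.41 ± 0.51, adjusted p = 0.107) and Ampd3 (1.39 ± 0.81, adjusted p = 0.351, edgeR) above Adssl1. Shmt1 fell from 133 to 174 CPM at pH 7.4 to 36.3 to 64.6 CPM at pH 6.9, by 1.69 ± 0.32 on the log2 scale (n = 3 and 3, adjusted p = 0.00405, edgeR). Adssl1, a form of adenylosuccinate synthase best known from muscle, rose from 51.4 to 59.2 CPM to 125 to 152 CPM, by 1.29 ± 0.24 (adjusted p = 0.00349, edgeR). Tk2, the mitochondrial thymidine kinase, rose from 11.3 to 20.0 CPM to 32.8 to 52.3 CPM, by 1.44 ± 0.33 (adjusted p = 0.0144, edgeR), a call lost without pH 7.4 replicate 4 or 6, without pH 6.9 replicate 4 and with all 18 libraries. Each called change of these 7 genes in odd or even mice missed the threshold with all 18 libraries (adjusted p 0.129 to 1).

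**Figure D4:**
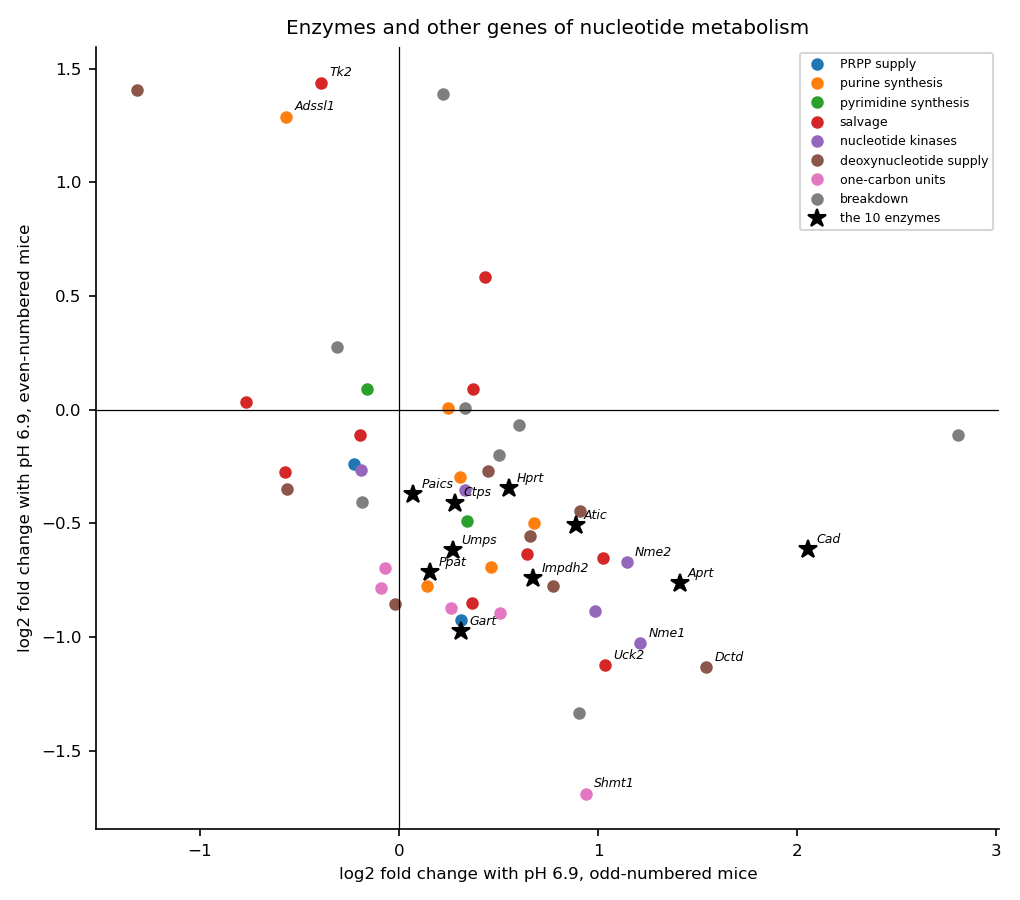
Log2 fold change of pH 6.9 over pH 7.4 in odd-numbered mice (horizontal axis) and in even-numbered mice (vertical axis) for the 10 enzymes (stars) and 46 other genes of nucleotide metabolism (circles, coloured by role). All 10 stars lie to the right of 0 and below it, beside Dctd, Nme1, Nme2, Uck2 and Shmt1, while Tk2 and Adssl1 lie at the upper left.

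Of the 10649 other genes, those whose log2 CPM followed the mean of the 10 members most closely over the 15 libraries were Wdr18 (Pearson r 0.97, Spearman rho 0.92), Lsm12 (0.97 and 0.93), Ruvbl2 (0.97 and 0.89), Eif1ax (0.96 and 0.93) and Phb (0.96 and 0.88). These points share libraries, depth and scaling, and the values are a description.

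The 2 left-out libraries of usable depth shared a profile of the enzymes that stood apart from the other 15. Fresh replicate 4 (even mouse) and pH 6.9 replicate 3 (odd mouse) had 2711 and 2930 CPM of Hprt, against 400 to 738 CPM in the others. Atic was at 361 and 253 CPM against 10.0 to 57.3 CPM, Paics at 1768 and 1387 against 562 to 853 CPM, Umps at 945 and 1018 against 255 to 435 CPM, and Ppat at 246 and 293 against 70.5 to 198 CPM. Going the other way, Ctps was at 9.21 and 3.51 CPM against 80.4 to 179 CPM, and Gart at 106 and 100.0 CPM against 126 to 390 CPM. Cad had 1 count in each, against 20 to 419 counts in the others. Aprt (363 and 253 CPM) and Impdh2 (342 and 320 CPM) lay close to or inside the others' range. The sum of the 10 genes was 4172 and 4179 counts per 1e+06 counts of the total in these 2 libraries and 2267 to 3376 in the other 15. Fresh replicate 1 had 19 counts of the 10 genes together. A count of 0 there allows up to 475 per 1e+06 counts of the unscaled total, which is not the TMM-scaled total used for CPM. This floor covers counting error only.

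**Figure D5:**
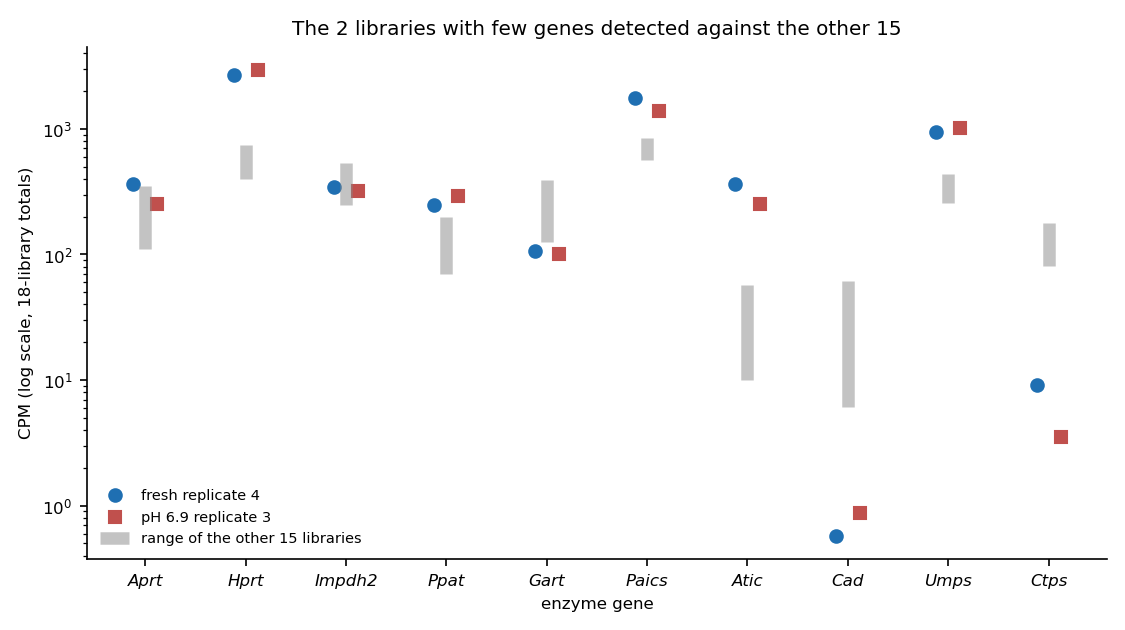
Level in CPM (log axis, totals scaled over 18 libraries) of each enzyme gene in fresh replicate 4 (blue circles) and pH 6.9 replicate 3 (red squares), with the range of the other 15 libraries in grey. Hprt, Ppat, Paics, Atic and Umps lie above the grey range in both, and Gart, Cad and Ctps below it.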

How the data were processed

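Per the labels' protocols, RNA of 100 sorted LT-HSCs was amplified with SMART-Seq v4, made into libraries with Nextera XT, which loses strand, and read from both ends over 75 bp. Reads were quantified with kallisto against mm10, per the submitters' processing notes. The authors deposited estimated counts per gene symbol, all whole numbers; how transcripts were summed to genes was not given in the sources used here. Genes were filtered with filterByExpr, TMM-scaled and tested by robust quasi-likelihood fits in edgeR 4.0.16 (R 4.3.3), with 1 coefficient per group over 18 libraries (10104 genes) or 1 per set of group and odd or even mouse over 15 libraries (10659 genes). The latter left out libraries with under 1e+05 counts or fewer than 10000 genes detected. Adjusted p are Benjamini-Hochberg over all genes tested, with a threshold of 0.05, and CPM use TMM-scaled totals.

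Named are the 10 enzymes, up to 4 called genes with the largest fold per direction and set of mice from a list of 48 further genes, and the 5 genes most like the members' mean (log2 CPM, prior count 2). Members, lists and tests were chosen with earlier results of these data known. Starts and motifs came from RefSeq (GRCm38.p6), where all 10 genes matched, and gene positions from GENCODE M21. Since the design text names 6 individual mice, numbers were taken to pair libraries, although the labels do not say that each mouse gave cells to all 3 groups. Of 18 same-number pairs over all 18 libraries, 4 had a correlation of deviations from group means over 0.1 (range -0.492 to 0.143). Over the 15 libraries, with deviations from set means, the correlations ran from -0.0951 to 0.156. A fit with the mouse number was an alternative. The others were DESeq2 1.42.0, its size factors, no filter, a filter of 5 CPM in 5 libraries, all 18 libraries, and leaving out each library in turn. The fits were tested on simulated data. Depth limits Cad and Atic most, with 20 and 21 counts at the lowest. Libraries hold no molecular identifiers.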

Additional observations from a re-analysis of the deposited data

Results flagged for a closer look

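Each group was tested, with and without the left-out libraries, for a single library far from the rest. Of 60 such tests 9 found one, all in groups of 6 libraries, where chance gives about 1 in 20. All 9 were highest values in fresh replicate 4 or pH 6.9 replicate 3, the libraries with few genes detected. In fresh replicate 4 these were Hprt (2711 CPM, the others at 160 to 695), Paics (1768, others 577 to 756), Atic (361, others 22.0 to 80.2) and Umps (945, others 160 to 405). In pH 6.9 replicate 3 they were Hprt (2930 CPM, others 438 to 738), Ppat (293, others 87.0 to 134), Paics (1387, others 562 to 772), Atic (253, others 21.0 to 57.3) and Umps (1018, others 255 to 435). The fits over sets leave both libraries out.

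For 6 members the change with pH differed between odd-numbered and even-numbered mice by the test of that difference (edgeR). The differences in log2 fold change were 2.17 for Aprt, 0.90 for Hprt, 1.29 for Gart, 1.42 for Impdh2, 2.67 for Cad and 0.89 for Umps. Mouse number and first index differ together here, so that they cannot be told apart.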

How the results depend on the processing

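Over the 10 members and 3 tests of pH within and between sets of mice, 344 values under alternatives kept their direction and side of the threshold, 48 lost their call, 3 gained one and 5 turned their sign. The sign turned only for uncalled changes in odd mice. Leaving out a library gave -0.10 to 0.38 for Ppat (lowest without pH 7.4 replicate 5), -0.070 to 0.60 for Gart and -0.054 to 1.61 for Atic (both lowest without pH 6.9 replicate 5), and all 18 libraries gave -0.034 for Gart and -0.27 for Ctps. With all 18 libraries the members called were 1 for pH in odd mice, 0 in even mice and 1 for their difference, 0 and 1 for odd against even mice at pH 7.4 and 6.9, and 0 and 1 for pH 6.9 against fresh cells in odd and even mice; all genes called were 65, 0 and 173 in the first 3. DESeq2 called 2 members between odd and even mice at pH 7.4 and 1 in fresh cells, where it called 783 and 57 of all 10659 genes. With the mouse number as a replicate block, 0 members were called for pH 6.9 against fresh cells in odd mice, and 2, 3 and 4 for pH in odd mice, even mice and their difference. Of all 10659 genes, that block called 20 in the first of these comparisons and 775, 657 and 1628 in the others. Leaving out a library gave 1 to 3 members for pH in odd mice, 0 to 3 in even mice, 4 to 6 for the difference, 0 to 0 and 2 to 4 between odd and even mice at pH 7.4 and 6.9, and 0 to 1 and 1 to 3 for pH 6.9 against fresh cells in odd and even mice. Calls over all genes fell too, to 161 to 491 for pH in even mice, from 719 with all 15 libraries. Between odd and even mice at pH 7.4 they fell to 59 to 290, from 355. The counts for the 48 further genes under these settings were chosen after seeing the data. The cause of these changes was not tested; a set left with 1 library was assumed to vary like the others.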
